A study of Flaveria bidentis and Flaveria robusta with 100 samples.

Results

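The genes described here encode carriers of the chloroplast envelope, listed for transport of the intermediates of C4 photosynthesis or, for NHD1, of sodium. The part of each in C4 photosynthesis was not tested. The list was BASS2, NHD1, PPT1, PPT2, DIT1, DIT2.1 and DIT2.2, looked up by Arabidopsis identifier among the rows of a leaf transcript table. Of these 7 genes, 5 have a row among the 21869 genes listed: BASS2 (AT2G26900), PPT1 (AT5G33320), PPT2 (AT3G01550), DIT1 (AT5G12860) and DIT2.2 (AT5G64280). All 5 passed the filter of a mean of at least 1 RPM (reads scaled to a common library total) and were among the 13563 genes tested. NHD1 (AT3G19490) and DIT2.1 (AT5G64290) are not analysed here.

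In C4 leaves of the NADP-malic enzyme type, carbon dioxide is first fixed in mesophyll cells and released again in bundle sheath cells, so pyruvate, phosphoenolpyruvate, malate and oxaloacetate must cross chloroplast envelopes at high rates. BASS2 brings pyruvate into the chloroplast together with sodium, and the antiporter NHD1 takes the sodium out in exchange for protons. PPT1 and PPT2 exchange phosphoenolpyruvate for phosphate, and the dicarboxylate carriers DIT1 and DIT2 exchange 2-oxoglutarate, glutamate and other dicarboxylates for malate, a pair of steps best known from ammonia refixation in photorespiration of C3 leaves.

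Transcripts were sequenced from mature leaves of Flaveria bidentis, a C4 species, and Flaveria robusta, labelled C3. Both species grew in a greenhouse for 36 days and then in a chamber for 6 days, where each day had 10 h of light (22 °C) followed by 14 h of darkness (20 °C). Leaves were taken every 4 h over 2 days of that cycle (LD) and then over 2 days of constant light (LL) with a last harvest 24 h later than the start of the second, which gives 25 time points per species. Each of the 50 combinations of species and time point holds 2 biological replicates, 100 libraries in all, and the value used is the authors' mean RPM of a time point. A name such as LD2 ZT08 gives the regime, its day and the zeitgeber time, here 8 h into the light of the second LD day; in LL the hours count from when the lights would have come on.

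The spread between the 2 replicates and the read depth per library were not used here, so every p-value measures the scatter of time-point means around a model and not the scatter between plants. Constant light always came after LD and cannot be told apart from the day of sampling or the age of the plants. The temperature of the lit nights is not stated separately, so lit and dark nights may differ in temperature too. Its part was not tested. Reads of both species carry Arabidopsis gene names; how they were matched, and how reads were divided between close copies such as DIT2.1 and DIT2.2 or NHD1 and NHD2, is not given in the sources used here. Leaf markers of photosynthetic tissue were high in every mean (4 of 5 listed genes in the table, summed level 19405.5 to 66162 RPM in F. bidentis and 35566 to 123142 RPM in F. robusta). The summed level of 6 of 7 listed vascular genes was lower in F. bidentis, with a median of 747 against 1365.5 RPM. Of these 6, SUC2 (0.27 log2 units) and SWEET11 (0.48) were higher in F. bidentis in LD and APL (-0.33), IRX3 (-0.25) and AHA3 (-0.97) lower, and their part in the differences between species was not tested. In 6 F. robusta means (LD2 ZT12 and ZT16, LL2 ZT04, ZT08 and ZT20, and LL3 ZT00) the 10 most abundant genes held 8.26% to 10.4% of the reads, against 11.9% to 20.4% in the other 19. Scaling by a trimmed mean of M values (TMM), which follows the bulk of genes, gave factors of 0.804 to 1.32. As deposited, the median gene of F. bidentis stood 0.35 log2 units higher in the dark than in the light, and that of F. robusta 0.42; after TMM these shifts were 0.02 and 0.03.

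All 5 carriers stood higher in the C4 species in LD, by 15.4-fold for the pyruvate carrier BASS2, 7.57-fold for PPT1, 2.22-fold for DIT2.2, 1.77-fold for DIT1 and 1.48-fold for PPT2. The comparison set the 12 LD means of each species against each other hour by hour with limma on log2(mean RPM + 1), and all 5 passed with a Benjamini-Hochberg adjusted p under the threshold of 0.05. Over all genes tested, 64.8% passed and 32.3% were higher in F. bidentis, with a median difference of -0.0032 log2 units. In whole leaves, fewer cells of a type and less RNA per cell cannot be told apart. Each photosynthetic type is represented by a single species, so type cannot be told apart from any other difference between these species.

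The BASS2 level in LD ran from 2678 RPM (lowest) through a median of 4298.25 to 6077.5 RPM (highest) in F. bidentis. In F. robusta it ran from 144.5 through 251 to 461.5 RPM. The 2 ranges lie far apart: the lowest C4 mean, at LD2 ZT12, was above every C3 mean. The difference was 3.95 log2 units (SE 0.12, 95% confidence interval 3.68 to 4.21, limma adjusted p = 4.85e-13), the 28th largest in absolute size among the genes tested. Hour by hour the ratio varied from 8.91 at LD2 ZT20 to 26.3 at LD2 ZT08.

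For PPT1, levels in LD ran from 590.5 through 915.75 to 1563.5 RPM in F. bidentis. Its F. robusta levels ran from 74 through 116 to 190.5 RPM. Here too the ranges did not overlap, and the difference was 2.92 log2 units (SE 0.09, interval 2.72 to 3.12, limma adjusted p = 5.33e-13). The ratio was smallest at lights-on of LD1 (5.15) and largest at LD2 ZT08 (10.7).

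PPT2, the second phosphoenolpyruvate carrier, differed far less. It ran from 31 through 95 to 244.5 RPM in F. bidentis and from 15 through 65.25 to 225.5 RPM in F. robusta in LD, so the ranges overlapped almost fully. At matched hours F. bidentis was nevertheless higher in 12 of 12 pairs, by a ratio of 1.06 to 2.29, and the difference was 0.57 log2 units (SE 0.10, interval 0.36 to 0.78, limma adjusted p = 0.000114). Without the hour as a term in the model this call was lost (adjusted p = 0.367).

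Of the dicarboxylate carriers, DIT2.2 separated the species fully in LD: 156, 207.75 and 517.5 RPM were its lowest, median and highest levels in F. bidentis and 65.5, 106.5 and 137 RPM those in F. robusta. DIT1, the 2-oxoglutarate/malate carrier, ran from 605.5 through 1019.5 to 1524 RPM in F. bidentis and from 277 through 613.75 to 809.5 RPM in F. robusta, with overlap. The differences were 1.15 log2 units for DIT2.2 (SE 0.14, limma adjusted p = 2.25e-06) and 0.82 for DIT1 (SE 0.09, adjusted p = 1.28e-06). DIT1 was higher in F. bidentis at all 12 hours by a ratio of 1.48 to 2.80. The DIT2.2 ratio ranged more widely, from 1.50 at LD1 ZT16 to 5.31 at LD2 ZT04.

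**Figure D1:**
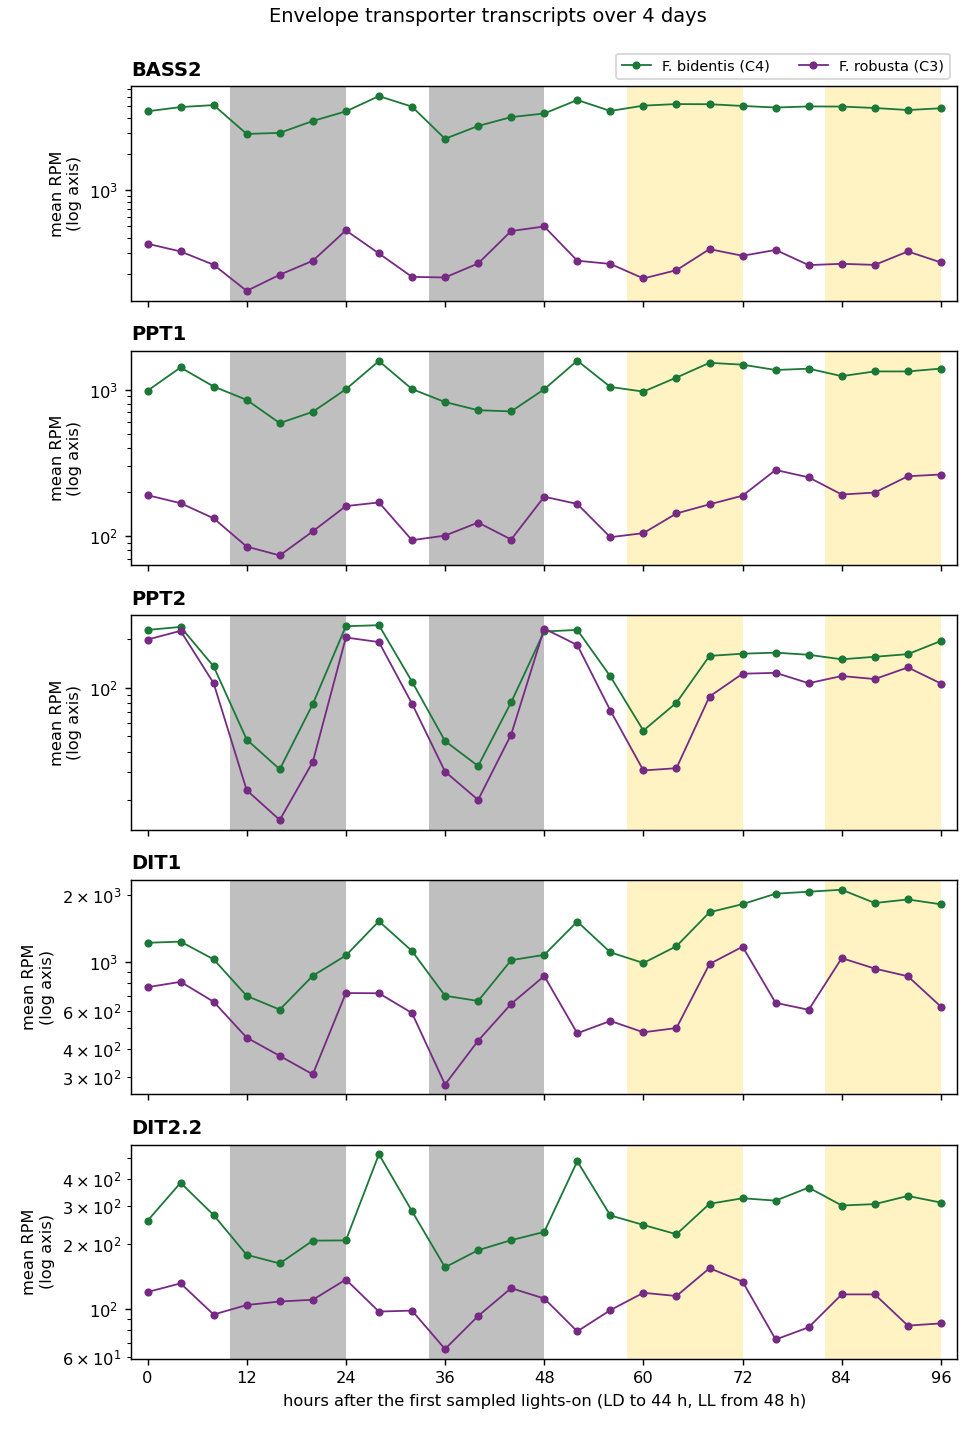
Mean RPM (log axis) of the 5 carriers in F. bidentis (green) and F. robusta (purple) at each harvest, against hours after the first sampled lights-on; each point is the authors' mean of a time point, grey bands are dark hours and yellow bands are night hours lit in LL. BASS2 and PPT1 ran far apart in the 2 species at every harvest, PPT2 swung by 7.89-fold and 15.0-fold in LD, and in F. bidentis the 6 means of the second LL day differed by at most 1.21-fold for any of the 5 genes.

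In constant light the same 5 genes were again higher in F. bidentis over 13 matched time points, where 67.8% of genes passed, 26% higher and 41.8% lower in F. bidentis (34.9% and 36.2% after TMM). The differences were 4.19 log2 units for BASS2 (SE 0.11, limma adjusted p = 3.77e-16), 2.80 for PPT1 (SE 0.11), 1.54 for DIT2.2 (SE 0.13), 1.14 for DIT1 (SE 0.11) and 0.56 for PPT2 (SE 0.10). The median of all genes moved to -0.13 in LL, and to -0.01 after TMM, which put the 5 carriers 0.14 log2 units further up. The largest BASS2 ratio of the whole series, 27.6, fell at LL1 ZT12, the first hour at which the lights stayed on at night. PPT2 gave the 1 exception among 125 matched pairs: at LL1 ZT00 it read 223.5 RPM in F. bidentis and 233 RPM in F. robusta. As in LD, its LL call was lost without the hour as a term (adjusted p = 0.0667).

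**Figure D2:**
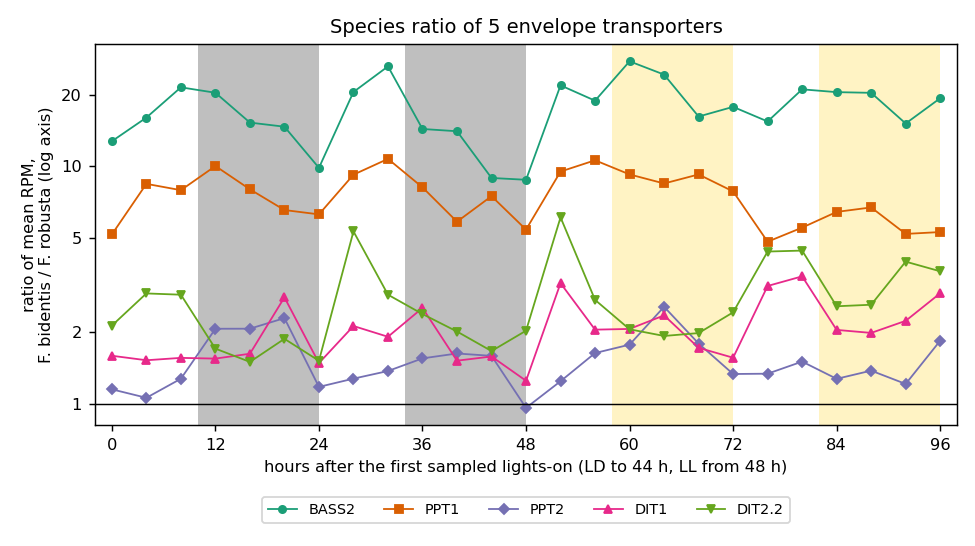
Ratio of mean RPM, F. bidentis over F. robusta (log axis), at each of 25 matched harvests for the 5 carriers; the black line marks a ratio of 1, grey bands are dark hours and yellow bands night hours lit in LL. BASS2 stayed between 8.75 and 27.6, PPT1 between 4.80 and 10.7, and PPT2 dipped to 0.959 at LL1 ZT00.

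The carriers can be set beside other genes of the same envelope, from lists chosen with earlier results of these data known. Among 13 tested carriers of other metabolites, 7 were higher and 4 lower in F. bidentis in LD, with a median of 0.22 log2 units against 1.15 for the 5 genes above. NHD2, a relative of the sodium antiporter NHD1, differed more than BASS2 in LD, though not in LL (4.15 against 4.19 log2 units), and how reads were divided between it and NHD1 is not known. In LD it averaged 1494 RPM in F. bidentis and 66.2 RPM in F. robusta, a difference of 4.48 log2 units (SE 0.11, limma adjusted p = 2.91e-14). BASS4, a family member of BASS2, averaged 1550 and 74.8 RPM, which is 4.34 log2 units (SE 0.11). BASS3, another member of that family, went the other way, with 11.5 against 81.6 RPM and a difference of -2.78 log2 units (SE 0.12). The glycolate and glycerate carrier PLGG1 of photorespiration was also lower, at 268 against 731 RPM (-1.43 log2 units, SE 0.11).

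TPT, the exporter of triose phosphates, was 0.85 log2 units higher in F. bidentis (SE 0.08) and the glucose 6-phosphate carrier GPT2 1.05 (SE 0.11). The carriers MEX1 for maltose (0.61), GPT1 (0.34) and BASS1 (0.22) differed less on the higher side, and XPT (-0.53) and BASS5 (-0.37) on the lower side. The 8 genes of protein import through the same membranes were set beside them, and whether their transcripts follow the amount of envelope was not tested. Of these 8 import genes only TOC75, the outer channel, passed in LD, at 0.27 log2 units (SE 0.10, limma adjusted p = 0.0272), and none passed as lower. Their median was 0.12 in LD. In LL 4 of the 8 passed, all higher in F. bidentis, with a median of 0.27 log2 units, and 6 passed after TMM.

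**Figure D3:**
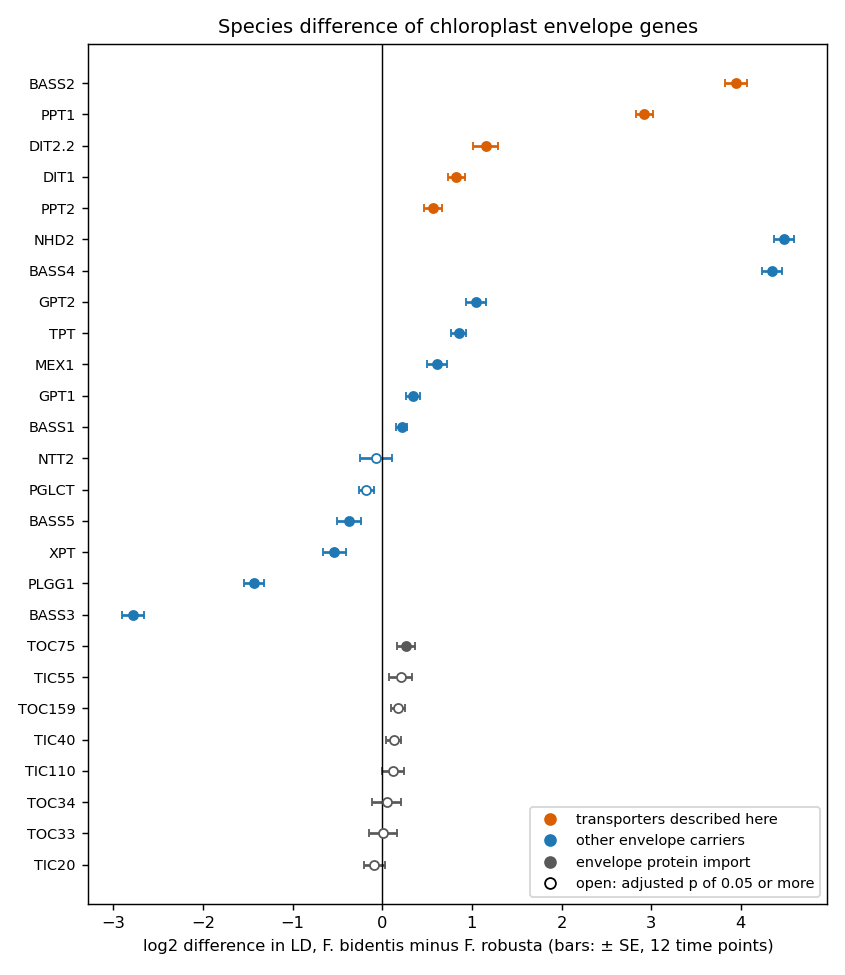
Difference between species in LD (log2, F. bidentis minus F. robusta; points with bars of ± SE over 12 time points) for the 5 carriers described here, 13 other envelope carriers and 8 genes of envelope protein import; open points did not pass limma's adjusted p of 0.05. BASS2 (3.95) lies next to NHD2 (4.48) and BASS4 (4.34), BASS3 (-2.78) lies at the other end, and the import genes lie near 0.

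The enzymes of the C4 cycle use or make the substrates of these carriers. Of 21 tested C4 cycle genes, 15 were higher and 3 lower in F. bidentis in LD, with a median of 2.13 log2 units, and PPCK2, ASP1 and ASP2 did not pass. PPDK, the chloroplast enzyme that turns imported pyruvate into phosphoenolpyruvate, differed by 5.79 log2 units (SE 0.19), and PPC2 and PPC1, which stand for the carboxylase that uses exported phosphoenolpyruvate, by 5.26 (SE 0.17) and 5.10 (SE 0.17). AMK2, a plastid adenylate kinase that serves the PPDK reaction, differed by 4.74 (SE 0.08). The 3 genes that were lower encode decarboxylases of other C4 types, PCK1 (-1.13 log2 units), NAD-ME1 (-1.08) and NAD-ME2 (-0.97). Close copies such as PPC1 and PPC2 can share reads.

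Dicarboxylate carriers of the DIT1 and DIT2 kind are known from photorespiration in C3 leaves. DIT2.1 was not analysed, and whether DIT2.2 takes part in photorespiration was not tested. The 2 measured carriers differed in direction from the genes of photorespiration. All 13 tested genes of photorespiration were lower in F. bidentis in LD and again in LL, with medians of -1.28 and -1.37 log2 units. Among them were GLU1, the glutamate synthase that uses the 2-oxoglutarate DIT1 imports (-2.20, SE 0.10), GLDT of the glycine decarboxylase (-1.99, SE 0.09), the aminotransferase SGAT (-1.77, SE 0.14) and GLN2, the chloroplast glutamine synthetase (-1.60, SE 0.14). DIT1 and DIT2.2, by contrast, were higher in both regimes, as given above.

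Within LD each of the 5 carriers followed a 24 h rhythm in both species, by an F test in limma of cosine and sine terms beside a linear trend over 12 means. Rhythms were common: F. bidentis had them in 67.3% of all genes tested and F. robusta in 65.4% (41% and 42% after TMM, where all 5 carriers still passed). In F. bidentis the 5 fitted peaks fell together, from 2.74 to 4.58 h after lights-on. In F. robusta they fell from 22.99 h, before lights-on, to 2.96 h. After TMM all 5 F. robusta peaks came after lights-on, from 1.0 h (BASS2) and 1.29 h (DIT2.2) to 3.06 h, and those of F. bidentis lay between 2.76 and 4.01 h.

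PPT2 had by far the deepest cycle. On LD1 it went from 238.5 RPM at ZT04 down to 31 RPM at ZT16 in F. bidentis, and from 225.5 to 15 RPM in F. robusta, and LD2 was close to a repeat, at 244.5 and 32.5 RPM and at 192 and 20 RPM. The fitted span from trough to peak was 3.03 log2 units in F. bidentis (SE 0.15, peak at 2.74 h, SE 0.18 h, limma adjusted p = 6.15e-07) and 3.84 in F. robusta (SE 0.23, peak at 2.96 h, SE 0.21 h, adjusted p = 3.89e-07). The lit hours, counted here as ZT00, ZT04 and ZT08, were all above the dark hours in both species. ZT00 is the harvest at lights-on, which followed 14 h of darkness, and a response to light was not tested by this grouping.

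The other 4 genes cycled by much less. In F. bidentis the spans were 0.96 log2 units for BASS2 (SE 0.17), 1.10 for PPT1 (SE 0.15), 1.17 for DIT1 (SE 0.14) and 1.27 for DIT2.2 (SE 0.24). BASS2, PPT1 and DIT1 again had every lit mean above every dark mean in this species; for DIT1 the margin was 1024 against 1015 RPM. In F. robusta the spans were 1.32 for BASS2 (SE 0.19), 0.96 for PPT1 (SE 0.23), 1.17 for DIT1 (SE 0.28) and 0.54 for DIT2.2 (SE 0.17), and lit and dark means overlapped for all 4. After TMM these spans were larger, among them 1.51 for BASS2 in F. bidentis, and 1.52 for PPT1 and 0.93 for DIT2.2 in F. robusta. The DIT2.2 rhythm of F. robusta was close to the threshold (adjusted p = 0.0403). It missed it without LD2 ZT12 and ZT16 (0.182), with an added 12 h term (0.059), and when any of LD1 ZT04, ZT08 or ZT16 or LD2 ZT00, ZT12, ZT16 or ZT20 of that species was omitted (0.0504 to 0.128).

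The 2 LD days repeated each other within narrow limits in F. bidentis. The larger of the 2 values of an hour exceeded the smaller by a median of 1.04 (PPT1 and PPT2) to 1.15 times (DIT2.2). In F. robusta the medians ran from 1.15 (DIT1) to 1.32 times (PPT2), and the widest gap was the 308 and 643 RPM of DIT1 at ZT20.

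The shape of the day differed between species for BASS2 and DIT2.2, by limma's test of the products of species with the cosine and sine, which called 9.03% of all genes. BASS2 fell sharply at dusk in F. bidentis: it read 5115 RPM at LD1 ZT08 and 2940 RPM at ZT12, and 4965 and 2678 RPM on LD2, 57.5% and 53.9% of the earlier value. It then climbed through the dark to 3770 and 4062 RPM at ZT20 and peaked at ZT08 on LD1 and ZT04 on LD2. In F. robusta it already declined through the light period, from 357 RPM at lights-on to 238.5 at ZT08 on LD1 and from 461.5 to 189 on LD2. By ZT12 it fell further on LD1, to 144.5 RPM (60.6% of the ZT08 value). On LD2 it stayed at 187 RPM (98.9%), in a mean whose composition stood apart. It climbed through the dark in F. robusta too, to 257.5 and 456 RPM at ZT20. The fitted BASS2 peak was 3.24 h after lights-on in F. bidentis (SE 0.62 h) and within minutes of lights-on in F. robusta (SE 0.585 h), and the spans differed by -0.36 log2 units (SE 0.26, adjusted p of the whole difference 0.0356).

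DIT2.2 showed a sharp midday maximum in F. bidentis on both LD days, which was slight or absent in F. robusta. At ZT04 it stood at 382.5 RPM on LD1 and 517.5 RPM on LD2, against 255.5 and 207.5 RPM at the preceding lights-on. The F. robusta values at ZT04 were 131.5 RPM, the highest of LD1, and 97.5 RPM on LD2, after 120 and 137 RPM at lights-on. The spans were 1.27 and 0.54 log2 units and the peaks lay at 3.92 h (SE 0.67 h) and 22.99 h (SE 1.33 h), with an adjusted p of 0.0369. At LL1 ZT04, before the regimes differ in light, the values were again 480.5 RPM in F. bidentis and 79 RPM in F. robusta.

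Both differences in shape are near the threshold: after TMM, where 10.8% of all genes passed, neither did (limma adjusted p = 0.0937 for BASS2 and 0.0622 for DIT2.2). The span differences were then -0.23 for BASS2 and 0.87 for DIT2.2, and the fitted peaks, that of the C4 species first, were 3.10 and 1.0 h for BASS2 and 3.60 and 1.29 h for DIT2.2. BASS2 also missed the threshold without F. robusta LD2 ZT12 and ZT16 (0.0529). Omission of 1 mean lost the BASS2 call in 10 of 24 cases (0.0559 to 0.0871), which in both species were LD1 ZT00 and LD2 ZT00, ZT08 and ZT20, with LD1 ZT08 of F. bidentis and LD1 ZT12 of F. robusta. It lost the DIT2.2 call in 12 of 24 cases (0.0506 to 0.0885), in both species LD1 ZT08, LD1 ZT12 and LD2 ZT04, in F. bidentis also LD1 ZT00, LD1 ZT04, LD2 ZT08 and LD2 ZT20, and in F. robusta also LD1 ZT16 and LD2 ZT16; without F. bidentis LD2 ZT04 the DIT2.2 span difference was 0.40. For the other 3 genes the adjusted p was 0.144 (PPT2), 0.249 (PPT1) and 0.994 (DIT1). PPT1 passed without F. robusta LD2 ZT12 and ZT16 (0.0461), where its span difference turned from 0.14 to -0.18.

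Constant light compared the same clock hours with and without darkness. At ZT12, ZT16 and ZT20 all 5 carriers were higher in LL than in LD in F. bidentis, where 41% of genes passed, 5.54% up and 35.4% down (14.1% and 15.7% after TMM); the median gene fell by 0.21 log2 units, or by 0.01 after TMM. DIT1 rose by 1.06 log2 units (2.09-fold, SE 0.17, limma adjusted p = 0.000421), PPT2 by 1.23 (2.35-fold, SE 0.25, adjusted p = 0.00235), PPT1 by 0.78 (1.72-fold, SE 0.12), DIT2.2 by 0.63 (1.55-fold, SE 0.10) and BASS2 by 0.61 (1.52-fold, SE 0.09). For every one of the 5 genes each of the 6 lit-night means was above both dark means of its hour.

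The hours show how each gene got there. The dusk fall of BASS2 in F. bidentis was gone in the first lit night: 4569 RPM at ZT08 was followed by 5064, 5216.5 and 5202.5 RPM at ZT12, ZT16 and ZT20, where the dark values had been 2940 and 2678, 3001.5 and 3426, and 3770 and 4062 RPM. PPT1 read 968, 1207.5 and 1521 RPM through the same night, against 850 and 821.5, 590.5 and 723, and 705 and 709.5 RPM in the dark. DIT1 climbed likewise from 985.5 through 1174.5 to 1674 RPM, while its dark values lay between 605.5 and 1015 RPM.

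PPT2 still fell at dusk with the lights on. Between ZT08 and ZT12 of LL1 it dropped from 117.5 to 54 RPM in F. bidentis and from 72 to 30.5 RPM in F. robusta, to 46.0% and 42.4% of the earlier value, where the LD days of F. bidentis had left 35.1% and 42.7% and those of F. robusta 21.6% and 37.7%. At ZT12 the lit and dark values were thus close, at 54 RPM against 47.5 and 46.5 RPM for F. bidentis, and 30.5 RPM against 23 and 30 RPM for F. robusta. They parted later in the night, when PPT2 rose to 157.5 RPM at ZT20 in F. bidentis (79 and 81 RPM in the dark) and to 88 RPM in F. robusta (34.5 and 51 RPM). On LL2 the step was small: 160 RPM at ZT08 and 150 RPM at ZT12 in F. bidentis (93.8% of the earlier value) and 106.5 and 118 RPM in F. robusta. The rest of that night read 155.5 and 161.5 RPM in F. bidentis and 113 and 133.5 RPM in F. robusta.

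In F. robusta 3 of the 5 genes passed, where 6.31% of all genes passed, 1.3% up and 5.01% down (2.46% and 1.59% after TMM), and the median gene changed by -0.19, or by -0.01 after TMM. PPT2 rose by 1.42 log2 units (2.67-fold, SE 0.34, limma adjusted p = 0.0354), DIT1 by 0.93 (1.90-fold, SE 0.24, adjusted p = 0.0414) and PPT1 by 0.81 (1.76-fold, SE 0.19, adjusted p = 0.0293). All 6 lit-night means of these 3 genes were above both dark means of their hour. The changes were 0.09 for BASS2 (interval -0.26 to 0.45, adjusted p = 0.725) and 0.22 for DIT2.2 (interval -0.14 to 0.59, adjusted p = 0.396). F. robusta BASS2 exceeded both dark means at only 1 of 6 lit-night points, and at ZT20 it read 322 and 308 RPM in the lit nights and 257.5 and 456 RPM in the dark. DIT2.2 exceeded both of its dark means at 5 of 6 points. The exception was LL2 ZT20, a mean of set-apart composition, at 84 RPM against 110.5 and 125 RPM in the dark.

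These F. robusta calls were lost under several omissions, in some of which the change itself stayed as large. With the first lit night alone none of the 3 passed (adjusted p = 0.113 to 0.201), and the changes were 0.69 for PPT2, 0.62 for DIT1 and 0.48 for PPT1. Without LD2 ZT12 and ZT16 only PPT1 passed, with a change of 0.98 log2 units. PPT2 then changed by 1.51 and DIT1 by 0.87, and the calls over all genes went from 856 to 280. DIT1 missed the threshold after TMM (0.0557) with a change of 1.12. Omission of any of LD1 ZT12, LD1 ZT16, LL2 ZT12 or LL2 ZT16 lost all 3 calls, that of PPT1 with an adjusted p of 0.0536 to 0.0959. The PPT2 and DIT1 calls were also lost without LD1 ZT20, LD2 ZT12, LD2 ZT16 or LL1 ZT20, and that of PPT2 without LD2 ZT20, with ranges over all lost cases of 0.0572 to 0.0891 for PPT2 and 0.0518 to 0.122 for DIT1.

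No carrier passed the test that the change from dark to lit nights differs between species, which called 1.03% of all genes. Of the 5, 1 carrier, BASS2, had an unadjusted p under 0.05. For BASS2 the difference was 0.51 log2 units (interval 0.11 to 0.91, limma adjusted p = 0.258) and for DIT2.2 0.41 (interval -0.01 to 0.82, adjusted p = 0.420). The intervals were -0.52 to 0.46 for PPT1, -1.16 to 0.79 for PPT2 and -0.51 to 0.79 for DIT1. They do not reach the size of the gene's own change in either species. Differences inside these intervals remain compatible with the values.

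**Figure D4:**
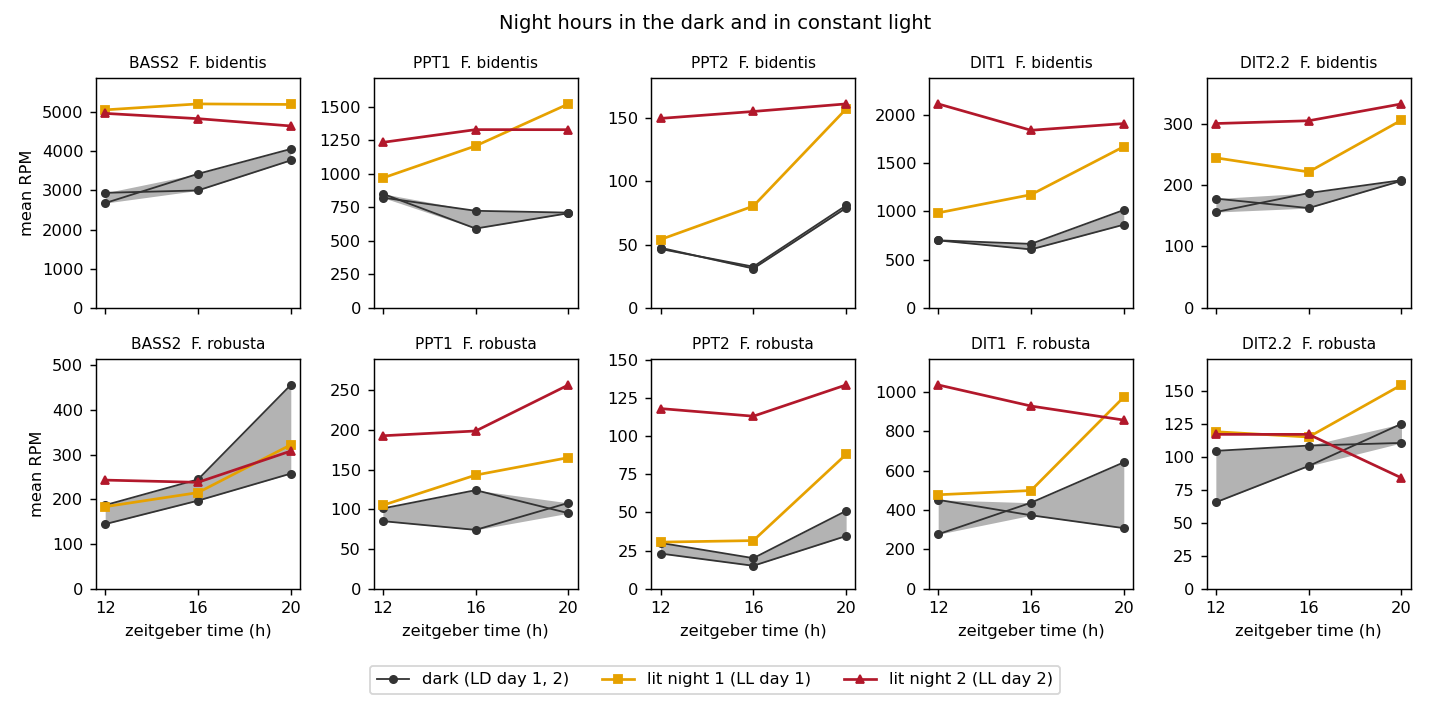
Mean RPM (linear axes from 0) at ZT12, ZT16 and ZT20 for the 5 carriers in F. bidentis (upper row) and F. robusta (lower row); dark circles are the 2 LD nights with the range between them shaded, yellow squares the first and red triangles the second night in LL. In F. bidentis every lit-night point lies above the dark range, PPT2 at ZT12 of the first lit night lies close to it in both species, and BASS2 of F. robusta lies within it at all 3 hours of that night.

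Over the 13 LL means no carrier passed the rhythm test in either species, and limma called 0% of all genes in both; at an unadjusted p under 0.05 it called 19.3% of genes in F. bidentis and 13.2% in F. robusta, among them 1 carrier (PPT2) and 4 carriers (all but DIT1). The fitted LL spans of PPT2 were 1.13 log2 units in F. bidentis (SE 0.30, adjusted p = 0.246) and 1.53 in F. robusta (SE 0.48, adjusted p = 0.325). For BASS2 they were 0.04 (SE 0.12) and 0.67 (SE 0.21).

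In F. bidentis all 5 carriers ranged less widely on the second LL day than on the first. The highest of 6 PPT2 means exceeded the lowest 4.23-fold on LL1 and 1.10-fold on LL2, against 7.69-fold on LD1. BASS2 ranged 1.30-fold on LL1, 1.08-fold on LL2 (4651.5 to 5031.5 RPM) and 1.74-fold on LD1. PPT1, DIT1 and DIT2.2 ranged between 1.16-fold (DIT1) and 1.21-fold (DIT2.2) on LL2, after 1.63-fold (PPT1) to 2.17-fold (DIT2.2) on LL1.

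In F. robusta the dicarboxylate carriers kept their spread in the values as deposited. DIT1 ranged 2.06-fold on LL1 and 1.93-fold on LL2, after 2.63-fold on LD1. DIT2.2 ranged 1.96-fold on LL1 and 1.85-fold on LL2, more than its 1.39-fold on LD1. The other 3 narrowed from LL1 to LL2: PPT2 from 7.64-fold to 1.25-fold (15.0-fold on LD1), BASS2 from 2.71-fold to 1.34-fold (2.47-fold on LD1) and PPT1 from 1.89-fold to 1.50-fold (2.57-fold on LD1). For DIT1 and DIT2.2 the lowest LL2 means were those at ZT04, ZT08 and ZT20, whose composition stood apart. DIT1 read 650, 604.5 and 858 RPM there and 929.5 to 1168.5 RPM at the other hours. DIT2.2 read 72.5, 82.5 and 84 RPM there and 117 to 134 RPM at the other hours. The part of composition in this spread was not tested.

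The level at which they settled was compared with the LD days at matched hours, a comparison chosen after the values were seen, which shares its LD means and the second lit night with the comparison of night hours. In F. bidentis 23.6% of genes passed, 5.02% up and 18.6% down (10.9% and 11.4% after TMM), and of the carriers DIT1, PPT1 and DIT2.2 rose. DIT1 moved to a range of its own: its 6 LL2 means lay between 1822.5 and 2118 RPM, all above the highest LD mean of 1524 RPM. The DIT1 rise was 1.06 log2 units (2.09-fold, SE 0.13, limma adjusted p = 0.000123). PPT1 rose by 0.56 (SE 0.12, adjusted p = 0.00478) and DIT2.2 by 0.45 (SE 0.14, adjusted p = 0.0319), the latter lost without any 1 of 9 means, namely LD1 ZT16 or ZT20, LD2 ZT12, ZT16 or ZT20, or LL2 ZT00, ZT12, ZT16 or ZT20 (0.0509 to 0.107). PPT2 changed by 0.71 (SE 0.28, adjusted p = 0.0786) and BASS2 by 0.27 (SE 0.11, adjusted p = 0.0933); PPT2 passed without LL2 ZT04 (0.0184) or LL2 ZT00 (0.0237), and BASS2 without LL2 ZT04 (0.0335).

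In F. robusta, where 6.83% of genes passed, 4.8% up and 2.03% down (6.84% and 5.16% after TMM), PPT1 rose by 0.91 log2 units (1.87-fold, SE 0.16, limma adjusted p = 0.002). Its LL2 means lay between 189 and 283 RPM, and the lowest of them, at ZT00, was the 1 mean below the highest LD value of 190.5 RPM. Without LL2 ZT04, ZT08 and ZT20, whose composition stood apart, its adjusted p was 0.0708. DIT1 changed by 0.68 (SE 0.21, adjusted p = 0.0647), and passed without those 3 means (0.0227) or without LL2 ZT04 or ZT08 alone (0.0252 to 0.0471). PPT2 changed by 0.86 (SE 0.36, adjusted p = 0.182), BASS2 by 0.04 (SE 0.15) and DIT2.2 by -0.09 (SE 0.15). No carrier passed the test of a difference between species in this change, where 6.31% of genes did, 1.03% with a change more positive in F. bidentis and 5.28% more negative (4.78% and 5.31% after TMM). Of the carriers 1, DIT2.2, had an unadjusted p under 0.05 (0.55 log2 units, interval 0.12 to 0.98, adjusted p = 0.095). Without F. robusta LD2 ZT12 and ZT16 DIT2.2 passed it (0.0262), as it did without F. bidentis LD2 ZT04 or LL2 ZT04, or F. robusta LD2 ZT12 or LL2 ZT12, alone (0.0204 to 0.0483).

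Of the 21 C4 cycle genes, 11 rose and 1 fell in lit nights in F. bidentis, with a median of 0.31 log2 units (0.55 after TMM) beside 0.78 for the 5 carriers (1.02 after TMM). PPCK1 and PPCK2, kinases of phosphoenolpyruvate carboxylase, rose by 2.73 and 2.46, AMK2 by 0.91 (SE 0.14), PPA6, the pyrophosphatase that removes a product of the PPDK reaction, by 0.66 (SE 0.12), and PPDK by 0.31 (SE 0.09); PCK1 fell by 0.63. In F. robusta 1 of them, PPCK1, rose (1.47) and 3 fell, the copies NADP-ME1, NADP-ME2 and NADP-ME4 of malic enzyme (-1.28, -1.24 and -1.22), which can share reads. Of the 13 other envelope carriers, 4 rose and 2 fell in F. bidentis (7 and 1 after TMM). MEX1 rose by 0.50 (SE 0.11), XPT, a carrier of pentose phosphates, by 0.46 (SE 0.14), BASS4 by 0.39 (SE 0.14) and NHD2 by 0.30 (SE 0.11), and GPT2 fell by 0.47 and GPT1 by 0.27.

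Across all 25 means of a species, Pearson's r on log2(mean RPM + 1) was 0.74 to 0.87 for the 10 pairs of carriers in F. bidentis, and -0.15 (PPT1 with DIT2.2) to 0.72 (PPT2 with DIT1) in F. robusta. These are descriptions over means that share hours and a fixed total of reads. The F. robusta LL means set apart in composition held its highest PPT1 levels, 252 to 283 RPM. DIT2.2 was low in the same means, at 72.5 to 86 RPM, and their effect on r was not tested. Outside the list, the profile most like that of PPT2 in both species was AT1G32900, a UDP-glycosyltransferase family gene (r = 0.92 and 0.95). For DIT1 it was the pyrophosphatase PPA6 (0.85 and 0.90), for PPT1 AT1G43310, a nucleotide-sugar transporter family gene (0.92 and 0.88), for BASS2 AT2G42990, a GDSL-like lipase gene (0.78 and 0.78), and for DIT2.2 AT3G63540, a PsbP family gene (0.68 and 0.73). PGR5 (AT2G05620), of cyclic electron flow, was among the 3 nearest of both BASS2 (0.76 and 0.76) and PPT2 (0.90 and 0.93). Like PPT1, AT1G43310 was higher in F. bidentis at all 12 LD hours, with means of 12.4 and 1.5 RPM. Whether PPT1 and AT1G43310 share reads was not tested. The F. robusta level of AT1G43310 lies near the 0.5 RPM step of the values, so its r with PPT1 there rests on few reads.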

How the data were processed

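Per the file headers, the deposited table holds RPM, which the authors scaled to a common library total, and the authors' mean RPM of each time point, in steps of 0.5. The submitters' processing notes name CASAVA and TAIR10. The 50 columns of means, which sum to 999418 to 1000090, were used. Another 200 columns of single libraries, whose numbers match no sample title, were not used, so depth per library is unknown and no interval is given for a single mean.

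Values were analysed as log2(mean RPM + 1) with limma 3.58.1 in R 4.3.3 (eBayes, trend and robust), over the 13563 genes that average 1 RPM or more. Fold changes are on this scale, which understates low genes. P-values were adjusted over all genes by the Benjamini-Hochberg method, threshold 0.05. Species were compared with the time point as a block, and LL with LD with the hour as a block. Rhythms were F tests of a 24 h cosine and sine with a linear trend; differences were products with species.

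Alternatives were TMM factors computed on RPM (trimming 30% of M and 5% of A), filters at 0 and at 5 RPM, a pseudocount of 0.1, rhythms with a 12 h term or without the trend, no time point block and omission of means. The members and lists were chosen with earlier results of these data known. Named beyond the members are up to 4 called genes of largest difference per list, any that went against the majority, and the 3 genes per member with the highest smaller r of the 2 species; others were chosen after their values were seen.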

Additional observations from a re-analysis of the deposited data

Results flagged for a closer look

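The daily rhythm of BASS2 differed between the species in LD by the test of the difference itself: F. bidentis had a fitted span of 0.96 and F. robusta one of 1.32 log2 units, a difference of -0.36, and the peak lay 3.24 h later in F. bidentis. The rhythm of DIT2.2 differed by the same test, with a span 0.73 log2 units larger in F. bidentis (1.27 against 0.54) and a peak 4.92 h later. The TMM factors rise in the dark hours of both species (1.07 to 1.26 in F. bidentis and 1.06 to 1.32 in F. robusta, against 0.804 to 0.988 and 0.822 to 0.930 in the light). With those factors neither gene passed. The span difference was then -0.23 for BASS2 (1.51 against 1.74) and 0.87 for DIT2.2 (1.80 against 0.93), and the peaks of F. bidentis and F. robusta lay at 3.10 and 1.0 h for BASS2 and at 3.60 and 1.29 h for DIT2.2.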

How the results depend on the processing

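No paired analysis was possible because the values used are the authors' means per time point and carry no replicate number, while the numbers of the single-library columns match no sample title; the time-point and hour blocks pair means, not replicates. For the same reason no replicate could be left out. Single time-point means were omitted instead. The pseudocount of 0.1, both filters and the fit without a linear trend changed no call of a carrier, and the species level in LD and LL kept 5 of 5 carriers under every alternative except that PPT2 was lost without the time point block. Of the 5 carriers, the count with a species difference in rhythm (2) was 0 after TMM and 0 to 2 when 1 mean was omitted. The count higher in lit nights in F. robusta (3) was 1 without LD2 ZT12 and ZT16, 0 with only LL night 1, and 0 to 3 when 1 mean was omitted. For the second LL day the counts under omission of 1 mean were 2 to 5 in F. bidentis (3), 1 to 2 in F. robusta (1) and 0 to 1 for the difference (0), which was also 1 without F. robusta LD2 ZT12 and ZT16.

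The values below changed sign or, for rhythms and differences in rhythm, had a fitted cosine and sine that together turned to the opposite part of the day. None had passed as deposited, and the cause was not tested. They were the rhythm difference of DIT1 (-0.029 after TMM, 0.040 without F. robusta LD2 ZT12 and ZT16, -0.11 to 0.097 on omission of 1 mean) and the LL rhythm of BASS2 in F. bidentis (0.17 after TMM, 0.032 to 0.090). The span difference of PPT1 (0.14) changed sign without such a turn, at -0.18 without F. robusta LD2 ZT12 and ZT16, and was -0.028 to 0.30 on omission of 1 mean. For light at night, the species difference of PPT1 was 0.0099 after TMM, 0.075 without the LL means set apart, 0.25 with only LL night 1 and -0.16 to 0.075 on omission, and that of PPT2 was 0.13 with only LL night 1 and -0.45 to 0.083 on omission. For the second LL day in F. robusta, BASS2 was -0.050 after TMM (-0.065 to 0.15 on omission) and DIT2.2 was 0.26 without the LL means set apart (-0.21 to 0.015). The species difference in that change was 0.068 for PPT2 after TMM (-0.47 to 0.20) and -0.072 for DIT1 without the LL means set apart. Differences in rhythm rest on 12 means per species at 4 h steps, and depth per library was not used here.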
